A study of Mus musculus with 8 samples.

Results

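Broad domains of acetylated histone H3 lysine 9 (H3K9ac) were described in C57Bl/6 mice given butyrate or vehicle, in epithelial cells isolated from the terminal ileum. The domains were chosen by length alone: a domain was any region of the deposited table whose end minus start was at least 5000 bp. This length came from the H3K9ac signal itself, so lengths and read totals are given as a description of what was selected. The rule took 273 of 11251 regions (2.43%), which held 9.17% of the base pairs covered by all regions. The 3 butyrate libraries came from mice treated with 150 mM butyrate for 7 days, and the 3 vehicle libraries from mice labelled vehicle. All mice were wild type, and the labels state neither age nor sex nor whether each library came from a separate animal. The p-values below thus reflect differences among libraries only, and these may include technical variation. Input chromatin was sequenced as 2 libraries and is not used here.

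H3K9ac is laid down by histone acetyltransferases near the starts of active genes and is removed by histone deacetylases. Most acetylated promoters carry a narrow peak that flanks the start, whereas broad stretches of active promoter marks are known from genes that set the identity of a cell type and from highly transcribed genes. Butyrate is a short-chain fatty acid made by bacteria of the gut, an energy source of the epithelium and an inhibitor of several histone deacetylases. The ileal epithelium is mostly absorptive enterocytes, which take up nutrients and bile acids through a brush border of actin-filled microvilli.

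The domains were counted on 1255251 to 1828591 reads in all regions per library, which are the reads that the deposited RPKM values (read density per kilobase at a common library size) stand for. A domain had 148 to 1886 reads per library on average, with a median of 465, against a median of 97.7 over all regions. The median counting error of a domain was 0.0669 on the log2 scale and its median SD between libraries of a group was 0.108, while over all regions the median counting error was 0.146 and the median SD 0.198. The libraries were labelled as epithelial cells, and all 17 genes on the enterocyte marker list had an H3K9ac region. That list includes Epcam, Krt8, Krt18 and Krt19, which mark epithelium in general. No region was listed for any marker of Paneth, enteroendocrine or stem cells, T cells, myeloid cells, smooth muscle or enteric neurons and glia. Regions were listed for 1 of 7 goblet, 2 of 5 tuft, 1 of 5 B cell and plasma, 2 of 4 pan-leukocyte, 1 of 5 fibroblast, 1 of 4 endothelial and 2 of 3 erythroid markers. Domains covered 8 of the 17 genes on the enterocyte list, Epcam and Krt8 among them, and no marker of the other cell types.

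The 4 domains called between butyrate and vehicle, by voom or in the authors' deposited table as given below, lie over Irf2bp2, Fos, Cgn and Hnrnpl, and their promoters are shown so that the DNA beneath those results can be read. Each sequence is the 250 bases before the start of the gene in RefSeq on GRCm38.p6, read 5′ to 3′ on the strand of the gene. Capitals mark matches to the searched motifs on either strand. The windows are chr8:126593987-126594236 on the minus strand for Irf2bp2, chr12:85473640-85473889 on the plus strand for Fos, chr3:94786483-94786732 on the minus strand for Cgn and chr7:28810640-28810889 on the plus strand for Hnrnpl.
Irf2bp2: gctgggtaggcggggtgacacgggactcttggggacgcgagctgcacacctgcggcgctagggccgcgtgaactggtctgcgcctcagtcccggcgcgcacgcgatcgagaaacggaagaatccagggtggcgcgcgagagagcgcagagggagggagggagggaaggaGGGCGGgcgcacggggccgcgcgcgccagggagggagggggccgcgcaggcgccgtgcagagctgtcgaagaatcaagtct
Fos: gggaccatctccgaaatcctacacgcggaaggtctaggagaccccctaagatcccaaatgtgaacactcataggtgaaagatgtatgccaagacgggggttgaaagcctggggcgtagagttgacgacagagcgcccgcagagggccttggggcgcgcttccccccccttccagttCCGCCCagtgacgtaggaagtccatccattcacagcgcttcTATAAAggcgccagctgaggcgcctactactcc
Cgn: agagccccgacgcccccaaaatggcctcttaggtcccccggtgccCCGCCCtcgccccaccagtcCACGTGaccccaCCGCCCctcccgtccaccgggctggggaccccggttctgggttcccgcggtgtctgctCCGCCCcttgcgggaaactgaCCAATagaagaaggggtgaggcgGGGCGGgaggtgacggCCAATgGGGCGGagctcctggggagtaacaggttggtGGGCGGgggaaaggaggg
Hnrnpl: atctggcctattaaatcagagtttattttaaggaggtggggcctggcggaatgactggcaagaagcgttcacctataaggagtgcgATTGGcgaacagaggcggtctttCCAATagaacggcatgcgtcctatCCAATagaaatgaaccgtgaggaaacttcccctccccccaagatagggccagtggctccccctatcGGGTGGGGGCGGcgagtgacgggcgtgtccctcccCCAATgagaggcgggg
The motifs searched were GGGCGG for the GC box, GGGTGGG for the KLF-type box, the CCAAT box itself, TATAAA for the TATA box, TGACGTCA for the CRE, TGANTCA for AP-1 sites, CACGTG for the E-box, CCGGAAG for ETS sites, AGATAA for GATA sites and TTCNNNGAA for STAT sites. The Irf2bp2 window had 1 GC box and 32 CpG dinucleotides, the highest CpG count of the 4 windows. In the Fos window there were 15 CpG, 1 GC box and a TATAAA whose first base lies 33 bases before the start. Cgn had 6 GC boxes, 2 CCAAT boxes, 1 E-box and 19 CpG. Hnrnpl had 4 CCAAT boxes, 14 CpG, and 1 KLF-type box that shares its last base with 1 GC box. The 4 windows thus had the GC box in common and differed in the other motifs. Across domains, 219 of 274 gene names matched a RefSeq promoter, and 320 promoter windows had their start inside a domain. The GC box occurred in 58.4% of these 320 windows, against 32.7% of all 32851 RefSeq windows of the same length. ETS sites occurred in 14.7% of domain windows and 6.91% of all windows, while CCAAT occurred in 30.0% of domain windows and 33.9% of all windows, and TATAAA in 10.3% of domain windows and 12.4% of all windows. The median window held 18 CpG in domains and 6 in all promoters. These counts describe letters in windows, and windows of alternative starts of 1 gene share sequence. All RefSeq windows include promoters outside any H3K9ac region, and windows within shorter regions were not counted separately. The differences from all promoters are thus not shown to be particular to domains. Over whole regions, the median was 26.7 CpG per kb in domains and 40.0 in regions under 5000 bp.

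Domain length had a median of 5945 bp and reached 14052 bp. There were 133 domains of at least 6000 bp, 40 of at least 8000 bp and 14 of at least 10000 bp. The longest lay over Actn4, an actin cross-linking protein (14052 bp, chr7:28949342-28963394 in mm10), and the next over Klf5, a Kruppel-like factor of the crypt (13794 bp, chr14:99295219-99309013). They were followed by Nfe2l2, the regulator of the oxidative stress response (12741 bp), and Ezr, which encodes ezrin, the linker of actin to the microvillus membrane (12171 bp). Osr2, an odd-skipped related zinc-finger factor, had a domain of 11902 bp, and Gata6, a zinc-finger factor of the gut endoderm, one of 11752 bp. The remaining 4 of the 10 longest were over Acsl5, a long-chain acyl-CoA synthetase (11407 bp), Zfp36l1, which speeds the decay of AU-rich mRNAs (11012 bp), Cdx2, the homeobox factor of intestinal identity (11010 bp), and Tnrc18 (10811 bp). At the other end, the domains just inside the limit were at Dab2ip (5000 bp), Cyp3a13 (5002 bp) and Ppfibp2 (5003 bp), and regions just outside it were at Bcl6 (4989 bp) and Fubp1 (4987 bp). Mean H3K9ac was 2.61, 1.55 and 3.96 RPKM at those 3 domains and 3.86 and 3.71 RPKM at those 2 regions, so the levels on both sides of the limit overlap. A pair of domains of the list bears the same name, Tcim, and the Gata6 domain is named by the file after a neighbouring noncoding gene.

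**Figure D1:**
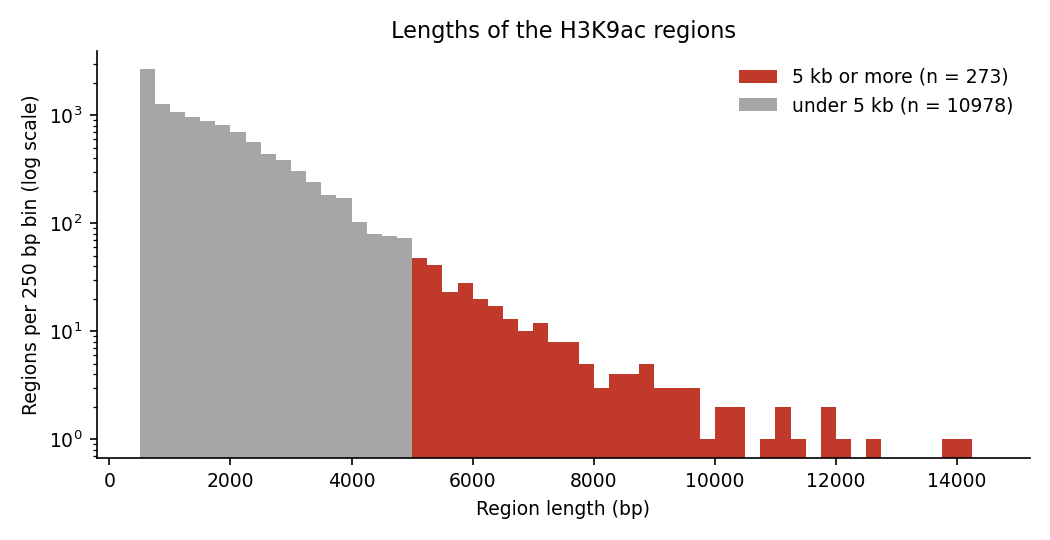
Histogram of the lengths of all 11251 H3K9ac regions in bins of 250 bp, with the number of regions on a log axis. The 273 domains of 5000 bp or more, in red, form the thin tail of the distribution and reach 14052 bp.

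Density varied widely among the domains. Mean H3K9ac over the 6 libraries had a median of 3.59 RPKM in domains (range 1.40 to 9.59) and of 3.09 RPKM in all regions. Of the 273 domains, 188 lay above the median of all regions, and 48 (17.6%) reached 5.17 RPKM, the 90th percentile of all regions. Spearman's correlation of mean RPKM with length was 0.14 over the 273 domains and 0.54 over all 11251 regions, a description of regions that share libraries and scaling. The domains were chosen by length and span only part of its range, so these correlations are not directly comparable. The densest domains were at Cldn3, a claudin of tight junctions, at 9.59 RPKM, at Actg1, cytoplasmic gamma-actin, at 9.50 RPKM, and at Zfp36, which encodes the mRNA decay factor tristetraprolin, at 8.63 RPKM. The weakest were at Mgam, the brush border maltase-glucoamylase, at 1.40 RPKM, at Cubn, the receptor for intrinsic factor and vitamin B12, at 1.51 RPKM, and at Cyp3a13, a cytochrome P450, at 1.55 RPKM. The Cubn domain was weak although it is 9584 bp long.

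Domains were placed asymmetrically around gene starts. Of the 273, 256 (93.8%) overlapped the start of a protein-coding gene in GENCODE release M21, against 67.0% of all regions. The share was 94.7% in regions of 3000 to 5000 bp and 92.5% in those of 2000 to 3000 bp, so it is not particular to the domains, and it was 27.6% under 1000 bp. A single coding gene started in 229 domains, 2 in 27 domains and none in 17. Of the 229 domains with 1 such gene, 211 (92.1%) reached farther downstream than upstream, with medians of 4725 bp downstream and 1435 bp upstream. All regions with 1 such gene had medians of 1269 bp downstream and 394.5 bp upstream, and 88.5% of them reached farther downstream. The downstream share of the length was thus similar, at a median of 76.8% in domains and 75.4% in all regions. Actn4 was the extreme, with 12998 bp downstream and 1054 bp upstream. Elf3, an epithelial ETS factor, had 78 bp upstream and 7060 bp downstream, and Fzd5, a Wnt receptor, had 29 bp upstream and 5424 bp downstream. Zfp36l1 ran the other way, with 7239 bp upstream and 3773 bp downstream, and Dab2ip, a Ras GTPase-activating protein, had 4497 bp upstream and 503 bp downstream.

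**Figure D2:**
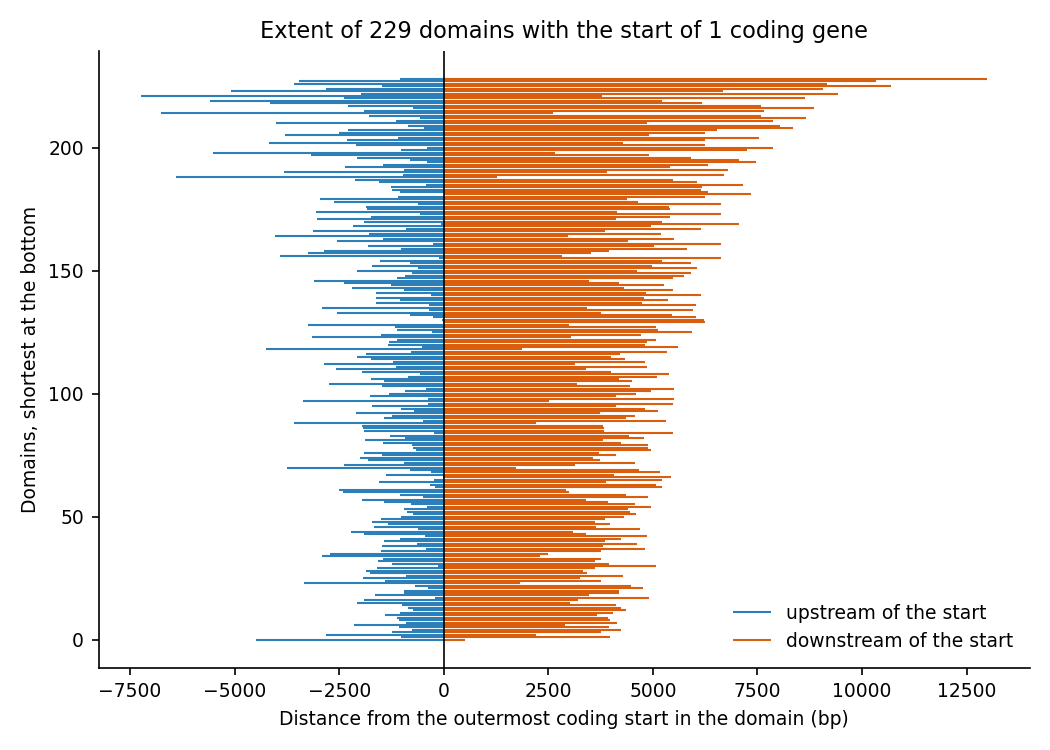
Extent of the 229 domains that hold the start of 1 coding gene, 1 horizontal line per domain, with the distance from the start in bp on the x axis and the domains ordered by length on the y axis. The orange downstream part is the longer one in 211 of the 229 domains and reaches 12998 bp, while the blue upstream part reaches 7239 bp.

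In 33 domains (12.1%) at least 1 coding gene lay whole inside the domain, against 0.987% of all regions. A longer region can hold more of a gene. This contrast and the covered shares below thus depend on the length rule and are given as a description. In 9 of the 33 domains a whole gene of the immediate early list was covered. The genes covered whole included Fos and Jun, the subunits of AP-1, Id1 and Id3, inhibitors of basic helix-loop-helix factors, Ier2, Klf4, Zfp36, Mcl1, an inhibitor of apoptosis, and Nfkbia, the inhibitor of NF-kappa B. The cytoskeletal and junctional genes Actb, Actg1, Cldn3 and Cldn7 and the intestinal factors Cdx2 and Elf3 were covered whole as well. Among the 229 domains with 1 coding gene start, the median share of the gene that was covered was 22.3%, against 4.64% in all such regions. In contrast, Tnrc18 was covered over 5.60% of its 93002 bp and Actn4 over 18.8% of its 69093 bp.

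Pairs of genes shared a domain in 27 cases, of which 23 had starts on both strands. Abcg5 and Abcg8, the divergent half-transporters that export sterols, shared a domain of 10330 bp. Brd2, a bromodomain reader of acetylated histones, shared 8197 bp with H2-DMa, and Slc6a20a, an imino acid transporter, shared 5084 bp with Ccr9. Values of such domains cannot be assigned to either gene, and the list counts below include the shared domains of Brd2, Slc6a20a and Irf1. The 17 domains without a coding start included those at the noncoding RNA genes Malat1 (9303 bp), Neat1 (8643 bp) and Mir21a (10161 bp, within Vmp1) and a domain over Hnf4aos within Hnf4a, the nuclear receptor of enterocytes (5349 bp). Others lay within Gramd1b, Smad1, Aoc1 and Anxa4. Of these 17 domains, 13 were among the 69 domains of lowest CpG density.

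Denser H3K9ac went with denser CpG and with higher GC content across the domains. The median was 26.7 CpG per kb in domains and 39.7 in all regions, and median GC content was 49.4% in domains and 52.2% in all regions. Spearman's correlation between mean RPKM and CpG per kb was 0.53 over the 273 domains and 0.67 over all 11251 regions. With GC content it was 0.61 over the domains and 0.64 over all regions. These points share libraries, scaling and base composition. The 69 domains of at most 15.9 CpG per kb had a median of 2.87 RPKM and reached 5.41 RPKM at Vil1, the microvillus protein villin. The 69 domains at the other end, of at least 35.0 CpG per kb, had a median of 4.19 RPKM and reached 9.50 RPKM at Actg1. The nutrient and bile acid list stood at the low end, with a median of 12.9 CpG per kb over its 14 domains, and the corepressor and chromatin list at the high end, with 52.5 over its 5. Medians of the other lists were 31.7 for intestinal factors, 35.5 for immediate early genes and 21.4 for junction and cytoskeleton genes. The highest CpG density of any domain, 81.6 per kb, was at Arid2, a subunit of the PBAF chromatin remodeller.

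**Figure D3:**
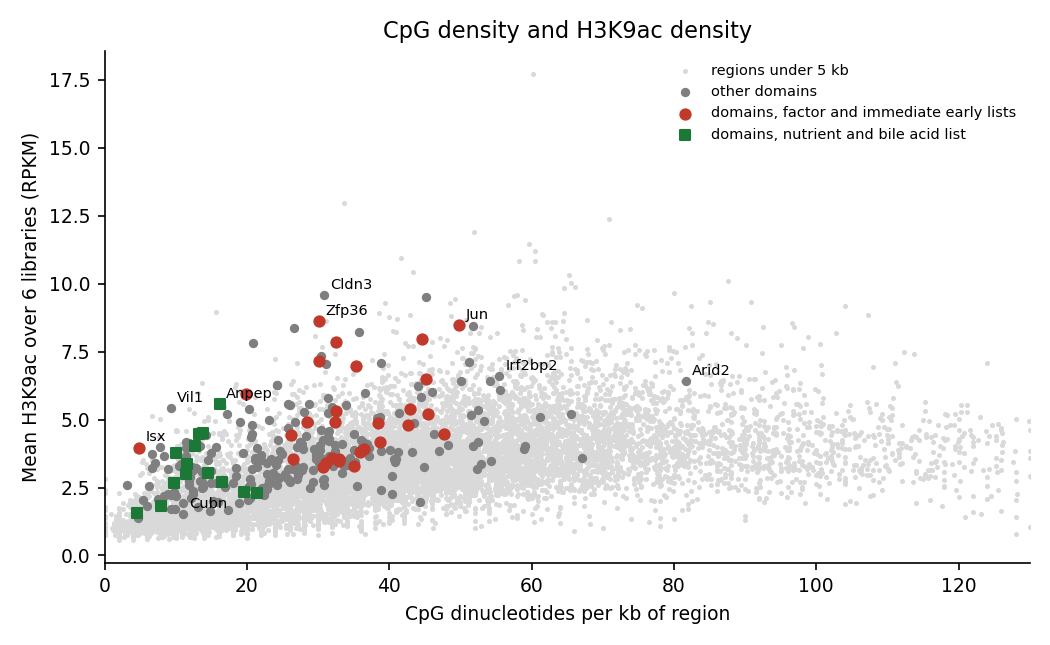
Mean H3K9ac over 6 libraries in RPKM (y axis) against CpG dinucleotides per kb of region (x axis), with regions under 5 kb in pale grey, domains of the factor and immediate early lists as red circles, domains of the nutrient and bile acid list as green squares and other domains in dark grey. The green squares lie at the low-CpG end, around their median of 12.9 CpG per kb, and 116 regions above 130 CpG per kb are not drawn.

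The study compared H3K9ac in the butyrate and vehicle mice. Over the whole set of domains, levels were close in both groups. The median domain had 3.50, 3.49 and 3.69 RPKM in the butyrate libraries S4, S5 and S6 and 3.61, 3.69 and 3.65 RPKM in the vehicle libraries S1, S2 and S3, so that the groups overlapped. The domains took 9.81%, 10.01% and 10.09% of the reads in regions in butyrate S4 to S6 and 10.08%, 10.18% and 10.11% in vehicle S1 to S3. The means were 9.97% ± 0.14 with butyrate and 10.1% ± 0.052 with vehicle (SD, n = 3 each). The difference of -0.156 percentage points is about the size of the SD between butyrate libraries, and it was not tested. In these bulk samples, fewer cells carrying the mark and less of the mark per cell cannot be told apart. The deposited scaling sets most regions as equal between libraries, so every difference is relative to the other regions.

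By limma on log2(RPKM + 1), with Benjamini-Hochberg adjustment over 10529 regions, 0 of 273 domains were called at an adjusted p of 0.05, as were 0.0% of all regions tested. The smallest adjusted p was 0.49. At an unadjusted p under 0.05 there were 9 domains (3.30%, against 7.27% of all regions). Of these, 7 were lower and 2 higher with butyrate, where all regions had 3.91% lower and 3.35% higher. The variance trend of this fit follows the RPKM level and not the number of reads, which is larger in domains. The lower share therefore does not show that domains change less than other regions. Limma's voom on the reads recovered from RPKM, with adjustment over 11251 regions, called 2 domains, against 0.142% of all regions. Of these 2, 1 was higher and 1 lower with butyrate, where all regions had 0.0711% higher and 0.0711% lower. It gave 42 domains an unadjusted p under 0.05 (15.4%, against 9.49% of all regions), 29 lower and 13 higher, where all regions had 5.19% lower and 4.3% higher. Among the 3519 shorter regions with at least as many reads as the weakest domain, the share with an unadjusted voom p under 0.05 was 8.18%. These regions were not matched to the domains in reads, and the share was 10.2% in regions of 3000 to 5000 bp. The authors' deposited table listed 4 domains at an FDR under 0.1, against 0.249% of all regions. All butyrate libraries lay above all vehicle libraries in 15 domains and below them in 27, together 42 of 273, against 14.2% of all regions (6.83% above and 7.35% below).

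The differences were small in nearly all domains. Limma's log2 fold changes ran from -0.32 to 0.28 with a median of -0.02, and 192 of 273 (70.3%) lay within 0.1 of 0, against 50.4% of all regions tested. Domains hold more reads and vary less between libraries of a group. The higher share therefore does not show that domains change less than other regions. On this scale the 95% interval of limma lay within a 1.5-fold change in either direction for all 273 domains, and by voom this held for 270. Values were lower with butyrate in 167 domains by limma (61.2%, against 49.97% of all regions) and in 164 by voom (60.1%, against 49.1%). The median log2 fold change by voom was -0.03 in domains and 0.00 in all regions. The mean of the library medians on the log2 RPKM scale was 1.83 with butyrate and 1.87 with vehicle, with a pooled SD of 0.034, so the shift was about as large as the spread between libraries.

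**Figure D4:**
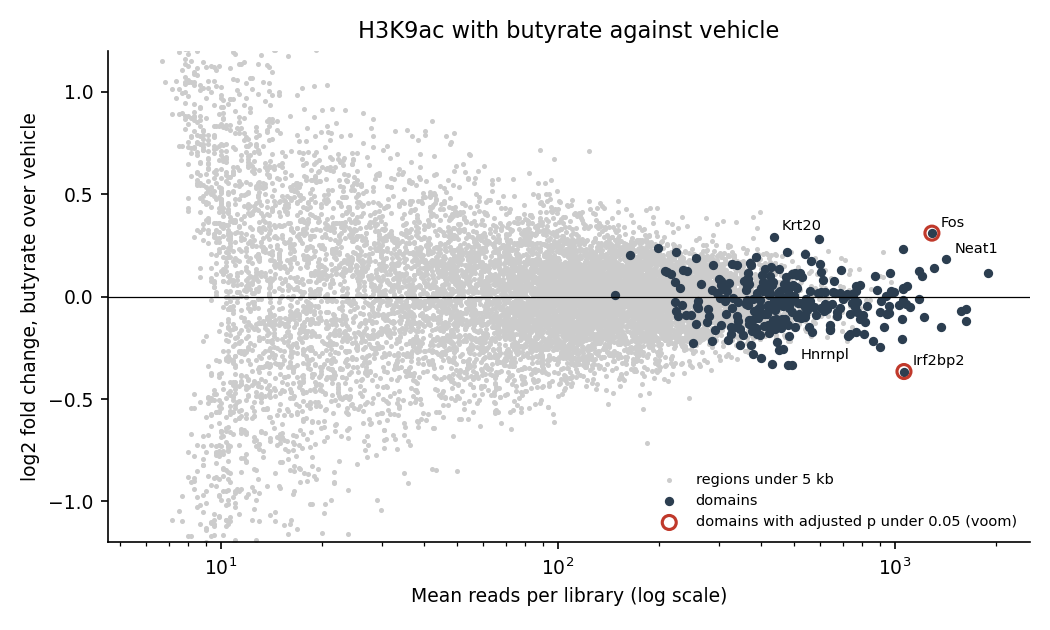
Voom log2 fold change of butyrate over vehicle (y axis) against mean reads per library on a log axis (x axis), with regions under 5 kb in grey and domains in dark blue. The domains sit at the right, with 148 to 1886 reads, and lie between -0.37 and 0.31, with the 2 voom calls, Fos and Irf2bp2, ringed in red, while 139 shorter regions beyond 1.2 log2 units are not drawn.

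H3K9ac was lower with butyrate over Irf2bp2, the gene of a nuclear corepressor bound by the interferon factor IRF2 (7591 bp, chr8:126587933-126595524). The domain had 5.97, 5.40 and 5.90 RPKM in butyrate S4 to S6, against 7.52, 7.66 and 7.14 RPKM in vehicle S1 to S3. Every butyrate library lay below every vehicle library. The means were 5.75 ± 0.31 RPKM with butyrate and 7.44 ± 0.27 RPKM with vehicle (SD, n = 3 each), a ratio of 0.773. Voom gave a log2 fold change of -0.37 ± 0.063 (SE) with an adjusted p of 7.65e-05, which ran from 0.000225 to 0.00924 as each library was left out. The authors' deposited table listed -0.37 with an FDR of 0.0018, while limma on log2(RPKM + 1) gave an adjusted p of 0.49. The domain covers the whole gene and extends 6053 bp downstream of the start, over the GC-rich promoter printed above.

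H3K9ac was higher with butyrate over Fos, the AP-1 subunit induced within minutes of many stimuli (7769 bp, chr12:85471531-85479300). Butyrate S4 to S6 had 7.95, 9.08 and 9.09 RPKM, against 7.18, 6.66 and 7.07 RPKM in vehicle S1 to S3. The groups did not overlap, although butyrate S4 stood closer to the vehicle libraries than to its own group. Means were 8.70 ± 0.66 RPKM with butyrate and 6.97 ± 0.28 RPKM with vehicle (SD, n = 3 each). The voom log2 fold change was 0.31 ± 0.058 (SE) with an adjusted p of 0.000276, and it ran from 2.67e-05 to 0.0474 with each library left out. An FDR of 0.0341 was listed in the authors' deposited table, and limma on log2(RPKM + 1) gave an adjusted p of 0.49. A separate region, at -21884 bp from the Fos start, had 1.80 ± 0.19 RPKM with butyrate and 2.00 ± 0.40 RPKM with vehicle (SD, n = 3 each), a difference within that spread.

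Jun encodes the partner of Fos in AP-1, and its domain did not pass the threshold of voom. It had 9.16, 9.23 and 9.22 RPKM in butyrate S4 to S6, against 8.57, 7.18 and 7.59 RPKM in vehicle S1 to S3. The groups did not overlap, and the SD of the butyrate libraries was 0.038 RPKM. The voom log2 fold change was 0.23 ± 0.063 (SE) with an adjusted p of 0.087, and with each library left out the adjusted p ran from 0.0377, without vehicle S1, to 0.43, without vehicle S2. The fold change was 0.32 without vehicle S1 and 0.18 without vehicle S2. Of the 60 genes on the immediate early list, 18 had a domain, 10 with higher and 8 with lower values by voom, and 1, Fos, was called. The median log2 fold change over the 18 was 0.03. Junb, another AP-1 subunit, had -0.01 ± 0.06 and Fosl2 had -0.05 ± 0.06 on the voom scale (SE). Zfp36 reached 0.12 ± 0.05 and Id1 0.18 ± 0.08 with no overlap between groups, but with adjusted p of 0.42 and 0.46.

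Cgn, which encodes cingulin of the tight junction plaque, was listed as lower in the authors' deposited table at an FDR of 0.0332 (7329 bp, chr3:94780250-94787579). Butyrate S4 to S6 had 2.48, 2.54 and 2.38 RPKM, against 3.06, 3.09 and 3.11 RPKM in vehicle S1 to S3. The groups did not overlap, with means of 2.46 ± 0.082 RPKM with butyrate and 3.09 ± 0.024 RPKM with vehicle (SD, n = 3 each). The median counting error of a domain was 0.0669 on the log2 scale. SDs as small as these from 3 libraries therefore do not show low variation. Voom gave -0.33 ± 0.090 (SE) with an adjusted p of 0.090, and without 1 or another library the adjusted p was 0.15 to 0.28. The list of 44 junction and cytoskeleton genes had 13 with a domain, 9 lower and 4 higher by voom, with a median of -0.11 and none called. Cldn3, Actg1, Krt8 and F11r had values of -0.11, -0.15, -0.13 and -0.18, and Krt20, Ctnnd1, Ezr and Cldn7 had 0.29, 0.17, 0.10 and 0.04.

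Hnrnpl, a regulator of alternative splicing, was likewise listed as lower in the authors' deposited table, at an FDR of 0.0682 (6601 bp, chr7:28807424-28814025). It had 3.00, 2.92 and 3.45 RPKM in butyrate S4 to S6, against 3.79, 4.17 and 3.94 RPKM in vehicle S1 to S3. No butyrate library reached the lowest vehicle library. Its voom log2 fold change was -0.34 ± 0.085 (SE) with an adjusted p of 0.051, which was 0.0474 without butyrate S6 and 0.080 to 0.24 without any other library. Prr15l had a similar value of -0.33 ± 0.086 (SE) with an adjusted p of 0.055, which was 0.0412 without vehicle S1 and 0.067 to 0.33 without any other library. Its levels were 3.28, 2.88 and 3.52 RPKM in butyrate S4 to S6, against 3.78, 4.46 and 4.12 RPKM in vehicle S1 to S3, again without overlap.

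Intestinal transcription factors had 8 domains from a list of 37 genes, and none was called. By voom 7 of the 8 had lower and 1 higher values with butyrate, and the median of the log2 fold changes was -0.11. Elf3 had the lowest fold change of them, with 5.44, 5.57 and 5.35 RPKM in butyrate S4 to S6, against 6.93, 6.12 and 6.21 RPKM in vehicle S1 to S3. Its groups did not overlap, and voom gave -0.25 ± 0.067 (SE) with an adjusted p of 0.090. Cdx2 had 6.68, 6.50 and 6.85 RPKM in butyrate S4 to S6, against 7.68, 7.22 and 6.83 RPKM in vehicle S1 to S3, with overlap and a voom value of -0.12. Ets2, Gata4, Gata6, Gata5 and Maf had voom values of -0.17, -0.15, -0.10, -0.08 and -0.07, and Isx, a homeobox repressor of carotenoid uptake, had 0.15. The per-library median of the 8 was 4.69, 4.86 and 4.74 RPKM in butyrate S4 to S6, against 5.37, 4.96 and 5.05 RPKM in vehicle S1 to S3.

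Of the Kruppel-like and GC box factors, 3 of 26 had a domain. Klf5 had 3.36, 3.12 and 3.42 RPKM in butyrate S4 to S6, against 4.21, 3.66 and 3.56 RPKM in vehicle S1 to S3, without overlap. Its voom log2 fold change was -0.21 ± 0.063 (SE) with an adjusted p of 0.16, and without vehicle S1 it was -0.12 with an adjusted p of 0.69. Klf4, a factor of differentiated epithelium, had 0.10 ± 0.07 and Klf3 -0.02 ± 0.06 (SE). Among 56 corepressors and chromatin enzymes, 5 had a domain, 3 lower and 2 higher, and Irf2bp2 was the one called. The domain shared by Brd2 and H2-DMa had -0.15 ± 0.07 with an adjusted p of 0.44, while Arid1a, Kmt2d and Tle3 had 0.02, 0.02 and -0.02. The crypt and villus signalling list had 4 domains from 49 genes, at Smad7, Tgif1, Fzd5 and Rnf43, with voom values of 0.04, -0.11, -0.22 and 0.07. Of 20 clock genes, Bhlhe40 had a domain, at -0.03 ± 0.08 (SE).

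Genes of nutrient and bile acid handling had 15 of 57 members in 14 domains, 5 lower and 9 higher by voom, with a median of 0.01 and none called. Slc5a1, the sodium-glucose cotransporter, Slc6a19, a neutral amino acid transporter, and Npc1l1, the cholesterol importer, had values of 0.01, 0.00 and 0.01. Mttp, the triglyceride transfer protein of lipoprotein assembly, was the most even of all domains within groups, with 2.85, 2.87 and 2.83 RPKM in butyrate S4 to S6, against 3.15, 3.18 and 3.13 RPKM in vehicle S1 to S3. The smallest SD within groups of any domain was 0.0108 on the log2 scale, below the smallest counting error of 0.0332. Such evenness, picked from all domains, is thus not shown to be a trait of Mttp. The groups did not overlap, and voom gave -0.15 ± 0.08 (SE) with an adjusted p of 0.57. The Abcg5 and Abcg8 domain had 3.34, 3.00 and 3.07 RPKM in butyrate S4 to S6, against 3.35, 3.87 and 3.57 RPKM in vehicle S1 to S3, without overlap and with a voom adjusted p of 0.36. Cyp3a13 had a voom value of 0.20 with an adjusted p of 0.63.

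Single libraries set the spread at several domains. Anpep, which encodes aminopeptidase N of the brush border, had 5.20, 7.83 and 4.72 RPKM in butyrate S4 to S6, against 5.43, 4.90 and 5.31 RPKM in vehicle S1 to S3, so that butyrate S5 stood alone. Krt20, a keratin of differentiated epithelium, had 2.93, 4.26 and 3.02 RPKM in butyrate S4 to S6, against 2.47, 2.80 and 2.91 RPKM in vehicle S1 to S3. The summed level of the regions of all 17 genes on the enterocyte marker list was 79.6, 88.2 and 79.6 RPKM in butyrate S4 to S6. In vehicle S1 to S3 it was 81.8, 82.4 and 81.7 RPKM, and butyrate S5 was again the highest. Krt20 had a voom log2 fold change of 0.29 with an adjusted p of 0.16, and without butyrate S5 these were 0.14 and 0.70. Neat1, the noncoding RNA of paraspeckles, had 7.67, 9.24 and 8.01 RPKM in butyrate S4 to S6, against 6.82, 7.65 and 7.46 RPKM in vehicle S1 to S3, so that the groups did not overlap. Clec2h, a C-type lectin, had 3.66, 4.56 and 3.84 RPKM in butyrate S4 to S6, against 3.13, 3.87 and 3.38 RPKM in vehicle S1 to S3, with overlap. Both were highest in butyrate S5, and both missed the voom threshold with adjusted p of 0.16 and 0.35. The voom log2 fold change of Neat1 was 0.18 with all libraries, 0.11 without butyrate S5 and 0.12 without vehicle S1. That of Clec2h was 0.22 with all libraries, and 0.14 both without butyrate S5 and without vehicle S1.

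The other domains that varied most within groups were Pck1, the enzyme of gluconeogenesis, and Sgk1, a glucocorticoid-induced kinase. Pck1 had 3.50, 5.04 and 4.05 RPKM in butyrate S4 to S6, against 3.59, 5.0 and 5.65 RPKM in vehicle S1 to S3. Sgk1 had 2.88, 3.85 and 2.58 RPKM in butyrate S4 to S6, against 2.54, 4.04 and 3.95 RPKM in vehicle S1 to S3. Both overlapped widely between groups, with voom adjusted p of 0.87 and 0.88. With 1 library left out these ran from 0.0185 to 0.99 for Pck1 and from 0.0399 to 0.98 for Sgk1, and both were called without vehicle S1. Selenop, the plasma carrier of selenium, had 4.32, 3.40 and 4.17 RPKM in butyrate S4 to S6, against 2.91, 3.91 and 3.21 RPKM in vehicle S1 to S3. Here butyrate S5 and vehicle S2 crossed over, and the voom adjusted p of 0.10 was 0.0369 without vehicle S2, 0.00854 without butyrate S5 and 0.27 to 0.59 without any other library. The voom log2 fold change of 0.28 ranged from 0.17 without vehicle S1 to 0.38 without vehicle S2.

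**Figure D5:**
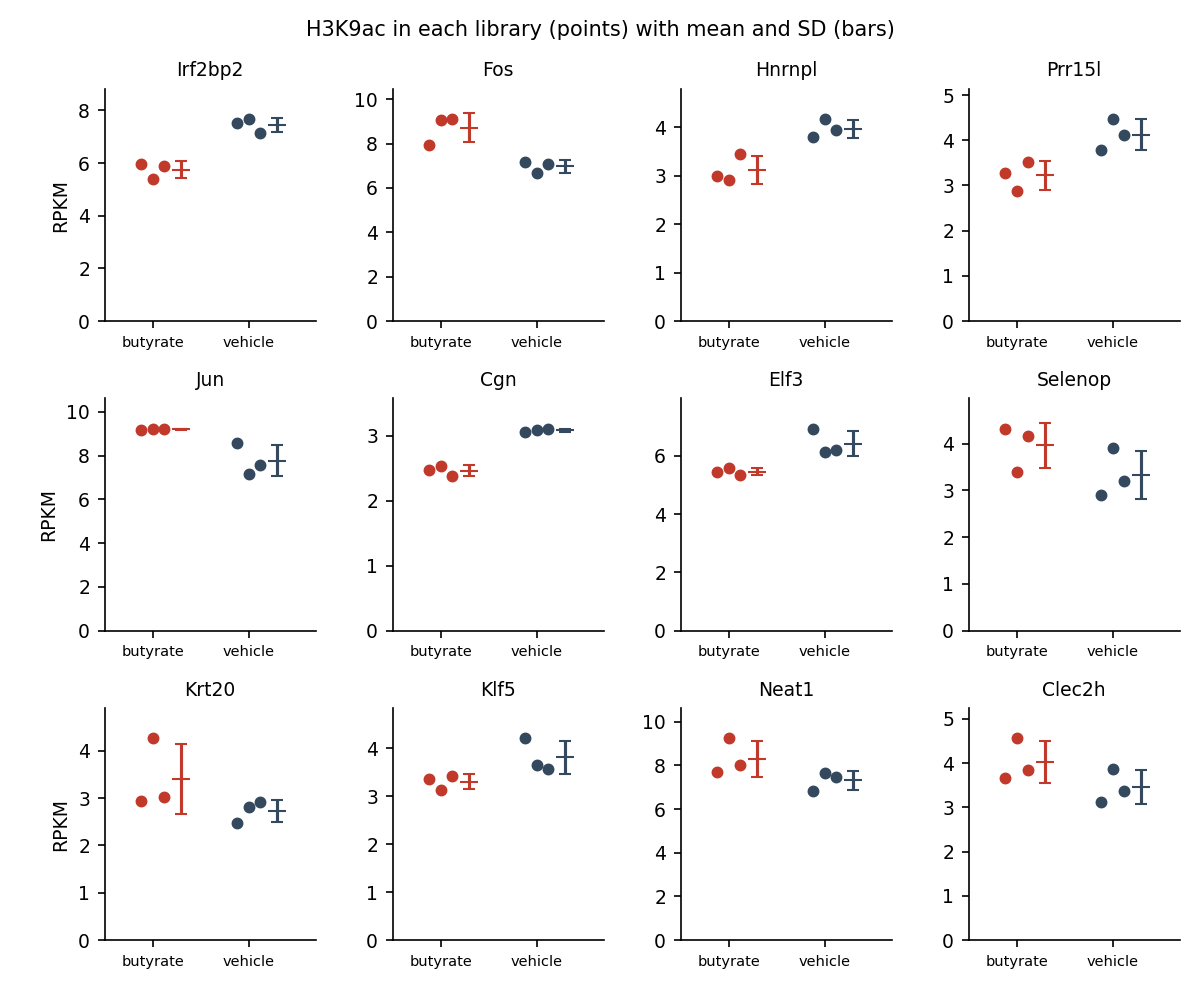
H3K9ac in RPKM (y axis, from 0) in each library for the 6 domains with the smallest voom p in each direction, with butyrate left of vehicle, points for libraries and bars for the mean and SD. Irf2bp2 and Cgn show the clearest separation, with butyrate at 5.40 to 5.97 and 2.38 to 2.54 RPKM and vehicle at 7.14 to 7.66 and 3.06 to 3.11 RPKM, while Selenop and Clec2h overlap.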

How the data were processed

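Chromatin immunoprecipitation with an antibody to H3K9ac and paired-end sequencing were done by the authors, per the labels' protocols. The submitters' processing notes name mm10, STAR, Picard, HOMER and edgeR, with no versions or roles; how regions were called and merged is not given in the sources used here. The deposited table holds RPKM per library (scaled by the authors to effective library sizes, from which read counts were recovered), the authors' mean CPM per group, which is not used, and the authors' log2 fold changes, p-values and FDR, per the file headers. RPKM times region length gave whole reads for 100% of values (tolerance 0.01 reads), at effective sizes of 17846924 to 25805595 reads. Column names give the group and no sample.

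Computed here were the domains (length at least 5000 bp) and limma 3.58.1 (R 4.3.3) on log2(RPKM + 1), with trend and robust moderation, on regions with a mean RPKM of at least 1, butyrate against vehicle, with Benjamini-Hochberg adjustment at 0.05. Fold changes on that scale understate those of weak regions. Voom on recovered reads was an alternative, and fits were tested on simulated data. Gene starts were those of GENCODE M21, and sequence came from GRCm38 (the same assembly as mm10) and RefSeq GRCm38.p6.

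The members and the gene lists were chosen with earlier results of these data known. Named domains were those called by any fit or by the authors, the 10 longest, the 6 smallest voom p in each direction, up to 4 examples per list by length, those at the length limit, and the extremes of level and of spread. Other domains were named after their values were seen. Alternatives changed the pseudocount, filter, scaling, moderation, length limit and threshold and left out each library. Some members of the lists and 1 region beside the length limit are not reported here.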

Additional observations from a re-analysis of the deposited data

How the results depend on the processing

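The number of domains called by limma on log2(RPKM + 1) was 0 under pseudocounts of 0.5 and 0.1, no filter or a mean RPKM of at least 2, each scaling, cyclic loess, plain moderation, an adjusted p threshold of 0.1, length limits of 4000 and 6000 bp, and with each library left out. It was 2 with voom on recovered reads, and 2 each, by fits added after seeing the data, with voom on regions of at least 25 mean reads and with limma on log2(CPM + 0.5). Voom called 2 to 6 domains as each library was left out, with 6 without vehicle S1, and 3 each without vehicle S2, butyrate S5 or butyrate S6. The cause of this variation was not tested. For the added fits and for voom with a library left out, the share of all regions called is not given. Those counts therefore cannot be read as particular to the domains. The median log2 fold change was negative under every alternative and ran from -0.04 to -0.02 with a library left out of limma, and from -0.05 to -0.02 out of voom. The share of reads in domains, butyrate minus vehicle, was -0.296 percentage points with a limit of 4000 bp, -0.0816 with a limit of 6000 bp, and -0.215 to -0.0758 with a library left out. Neither of these 2 values turned its direction, nor did the log2 fold changes of the 12 domains with the smallest voom p, 6 in each direction. The direction at other domains was not compared across the alternatives. No paired analysis was possible because the columns carry no replicate numbers of the labels. Depth limits the weakest domains, of 148 reads, to a counting error of 0.119 on the log2 scale.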

Other observations

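Among classes of region length, the domains had the largest share of lower values with butyrate. By voom, the share of regions with lower values in butyrate than in vehicle was 47.4% at 500 to 1000 bp, 47.5% at 1000 to 2000 bp, 50.6% at 2000 to 3000 bp, 54.8% at 3000 to 5000 bp and 60.1% at 5000 bp or more. The median log2 fold changes of these classes were 0.03, 0.01, -0.00, -0.01 and -0.03. By limma the median was -0.0252 with a length limit of 4000 bp, -0.0245 with 5000 bp and -0.0167 with 6000 bp. By that fit the shift was thus not larger in the longer domains. Among the 3519 shorter regions with at least as many reads as the weakest domain, 49.6% were lower, but these had at most 974.5 mean reads, against 1886 in domains, and were not matched to the domains in reads. Regions share libraries, so these shares carry no p.

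Within domains, the 69 domains of highest CpG density had 52 with lower voom values in butyrate than in vehicle and a median of -0.05 (log2 fold change), and the 69 of lowest CpG density had 31 lower and a median of 0.01. The median level of the CpG-rich group was 4.13, 4.16 and 4.35 RPKM in butyrate S4 to S6, against 4.51, 4.41 and 4.39 RPKM in vehicle S1 to S3, which do not overlap. In the CpG-poor group it was 2.84, 2.82 and 2.83 RPKM in butyrate S4 to S6, against 2.86, 2.90 and 2.82 RPKM in vehicle S1 to S3, with overlap. The difference between these groups was not tested. By voom, 60.1% of all domains and 49.1% of all regions were lower with butyrate. Spearman's correlation of the voom log2 fold change with GC content was -0.15 over domains and -0.03 over all regions. Shorter regions of like CpG density were not compared.

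Butyrate S5 was the lowest of the 6 libraries in 73 domains and the highest in 44, while butyrate S4 was the lowest in 53 and the highest in 22. Vehicle S2 was the highest in 65 domains.

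A smaller region in an intron of Mgam, beside its weak domain, had 1.60 ± 0.30 RPKM with butyrate and 2.29 ± 0.39 RPKM with vehicle (SD, n = 3 each), with a voom adjusted p of 0.31 and 0.99 for the domain itself.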
